A study of Schizosaccharomyces pombe with 12 samples.

Results

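Fission yeast (Schizosaccharomyces pombe) was examined here through 7 genes grouped around the factor Pap1, out of 12683 in the count table. These were pap1, which encodes an oxidant-sensing transcription factor, crm1 and hba1, which serve its export from the nucleus, and the genes obr1, sro1, osr1 and adh8. The first 5 were taken by name. The other 2, osr1 and adh8, were added because they rose strongly in peroxide-treated ubp16 cells, so their values in any comparison that uses ubp16 libraries are given as a description, with no test.

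PolyA RNA had been sequenced from 3 strains: a wild type given as WT (972), and the mutants ubp8 and ubp16, which the series design calls deleted strains. Cells of each strain grew in YE5S medium and were sampled untreated or 30 min into treatment with hydrogen peroxide at 1 mM, which makes 6 groups of 2 libraries. Ubp8 is the ubiquitin protease of the SAGA coactivator complex and removes ubiquitin from histone H2B, and Ubp16 is another ubiquitin-specific protease. The series title places the study in work on H2B ubiquitination at stress genes. The labels do not say how the genes were deleted, how many clones were used, or whether replicates are separate cultures, and p-values therefore measure the spread between these libraries only.

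Pap1 is a bZIP factor of the AP-1 type. In unstressed cells its nuclear export signal is recognised by Crm1, the main export receptor, which works with the GTPase Ran, and the Ran-binding protein Hba1 is needed for this export. Peroxide is sensed by the peroxiredoxin Tpx1, which passes the oxidation on to Pap1, so that the export signal is masked and Pap1 builds up in the nucleus. At high doses Tpx1 is itself over-oxidised and must be repaired by the sulfiredoxin Srx1, which delays Pap1. The regulation of Pap1 thus acts mainly on the protein, whereas the libraries measured transcripts. Among the genes examined, obr1 (a quinone oxidoreductase) and sro1 are known Pap1 targets, and the reference annotation gives osr1 as a dehydrogenase and adh8 as an alcohol dehydrogenase.

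Promoter windows of the 3 genes that reached the largest folds are shown first, because the results turn on them and because they differ in the AP-1-type letters they hold. Each window runs from 250 bases before to 50 bases after the annotated start and was read from RefSeq assembly ASM294v3, to which the coordinates belong. Which build lies behind the counts is not given in the labels or files. All 3 genes lie on the minus strand, and the windows are I:2094935-2095234 for obr1, II:294457-294756 for adh8 and III:1645827-1646126 for osr1, printed 5′ to 3′ with matches in capitals. The annotation holds no 5′ UTR for adh8 and osr1, so their windows are set on the coding start.
obr1: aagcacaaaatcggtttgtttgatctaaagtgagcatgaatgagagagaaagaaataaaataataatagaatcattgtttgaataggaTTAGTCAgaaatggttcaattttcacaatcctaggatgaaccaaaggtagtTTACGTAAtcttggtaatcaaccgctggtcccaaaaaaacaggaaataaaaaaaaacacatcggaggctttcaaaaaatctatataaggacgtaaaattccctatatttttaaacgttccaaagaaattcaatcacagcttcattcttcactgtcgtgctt
adh8: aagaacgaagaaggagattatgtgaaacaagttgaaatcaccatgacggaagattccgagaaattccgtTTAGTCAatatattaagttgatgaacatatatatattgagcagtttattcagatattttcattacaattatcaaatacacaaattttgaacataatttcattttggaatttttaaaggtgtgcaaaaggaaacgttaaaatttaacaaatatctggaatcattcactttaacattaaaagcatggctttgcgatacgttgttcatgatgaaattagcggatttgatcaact
osr1: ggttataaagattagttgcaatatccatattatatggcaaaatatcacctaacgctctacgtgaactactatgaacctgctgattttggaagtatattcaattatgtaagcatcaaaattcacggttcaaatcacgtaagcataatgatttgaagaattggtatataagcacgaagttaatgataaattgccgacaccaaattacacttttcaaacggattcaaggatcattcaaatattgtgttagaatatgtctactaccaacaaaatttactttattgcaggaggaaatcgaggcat

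Both strands were searched for 4 sequences: TTACGTAA and TTAGTCA, which Pap1 and its relatives bind, TTACTAA, the site of the related budding yeast factor Yap1, and TGACGT, the core of the sites of the stress factor Atf1. The obr1 window held TTACGTAA at 111 bases and TTAGTCA at 162 bases before the start, and the adh8 window held TTAGTCA at 181 bases before it. These positions count from the start to the first base of the match, and the matches do not overlap. None of the 4 was found in the windows of pap1, crm1, hba1, sro1 or osr1, which says only that these letters are not there. Of 5112 coding promoters searched in the same way, 0.470% held TTACGTAA, 4.52% TTAGTCA, 11.99% TTACTAA and 5.91% TGACGT. Of 13 other genes listed as Pap1-dependent, 5 held TTAGTCA (gst2, tpx1, caf5, bfr1 and pgr1) and 5 TTACTAA (srx1, gst2, trx2, caf5 and bfr1). The sequence TGACGT was held by 3 of them (ctt1, gst3 and hmt2) and TTACGTAA by 1 (gpx1). A match is a description and not a site in use.

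Levels below are CPM, counts scaled to a common library size after TMM normalization, which corrects for differences in library makeup. Fold changes are log2 values ± SE from edgeR's quasi-likelihood fit of all 12 libraries, with 2 libraries per group, and a gene was called at a Benjamini-Hochberg adjusted p under 0.05 over the 8166 genes tested. Total counts ran from 9904056 to 14054746 per library, and the lowest count of any of the 7 genes in a library was 91, for osr1. All 7 passed the filter on low counts. The targeted transcripts were reduced but not absent, although the design calls the strains deleted, so ubp8 and ubp16 below name the libraries labelled so. The ubp8 transcript stood at 9.49 and 8.34 CPM in untreated ubp8 and at 10.6 and 9.24 CPM in treated ubp8, against 29.9 to 39.6 CPM in the 8 libraries of the other strains, and was called lower than WT in both conditions (26.2% and 29.6% of WT). The ubp16 transcript stood at 22.2 and 24.95 CPM in untreated ubp16 and 9.38 and 13.0 CPM in treated ubp16, against 46.7 and 54.3 CPM in untreated WT and 20.5 and 25.6 CPM in treated WT, and was called lower than WT in both conditions (46.5% and 48.4% of WT). Peroxide also lowered the ubp16 transcript in WT, to 45.7% of its untreated level, so that untreated ubp16 and treated WT overlapped, and it was called lower in untreated ubp8 too (63.8% of WT). Scaling by library totals instead of TMM moves the median of all genes, for example from -0.01 to 0.28 for untreated ubp8 against WT and from -0.06 to -0.38 for the ubp8 response, and calls of the 7 genes lost by that shift are named with the gene. The 6 comparisons of a mutant with WT share the WT libraries, so they are not independent of each other.

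**Figure D1:**
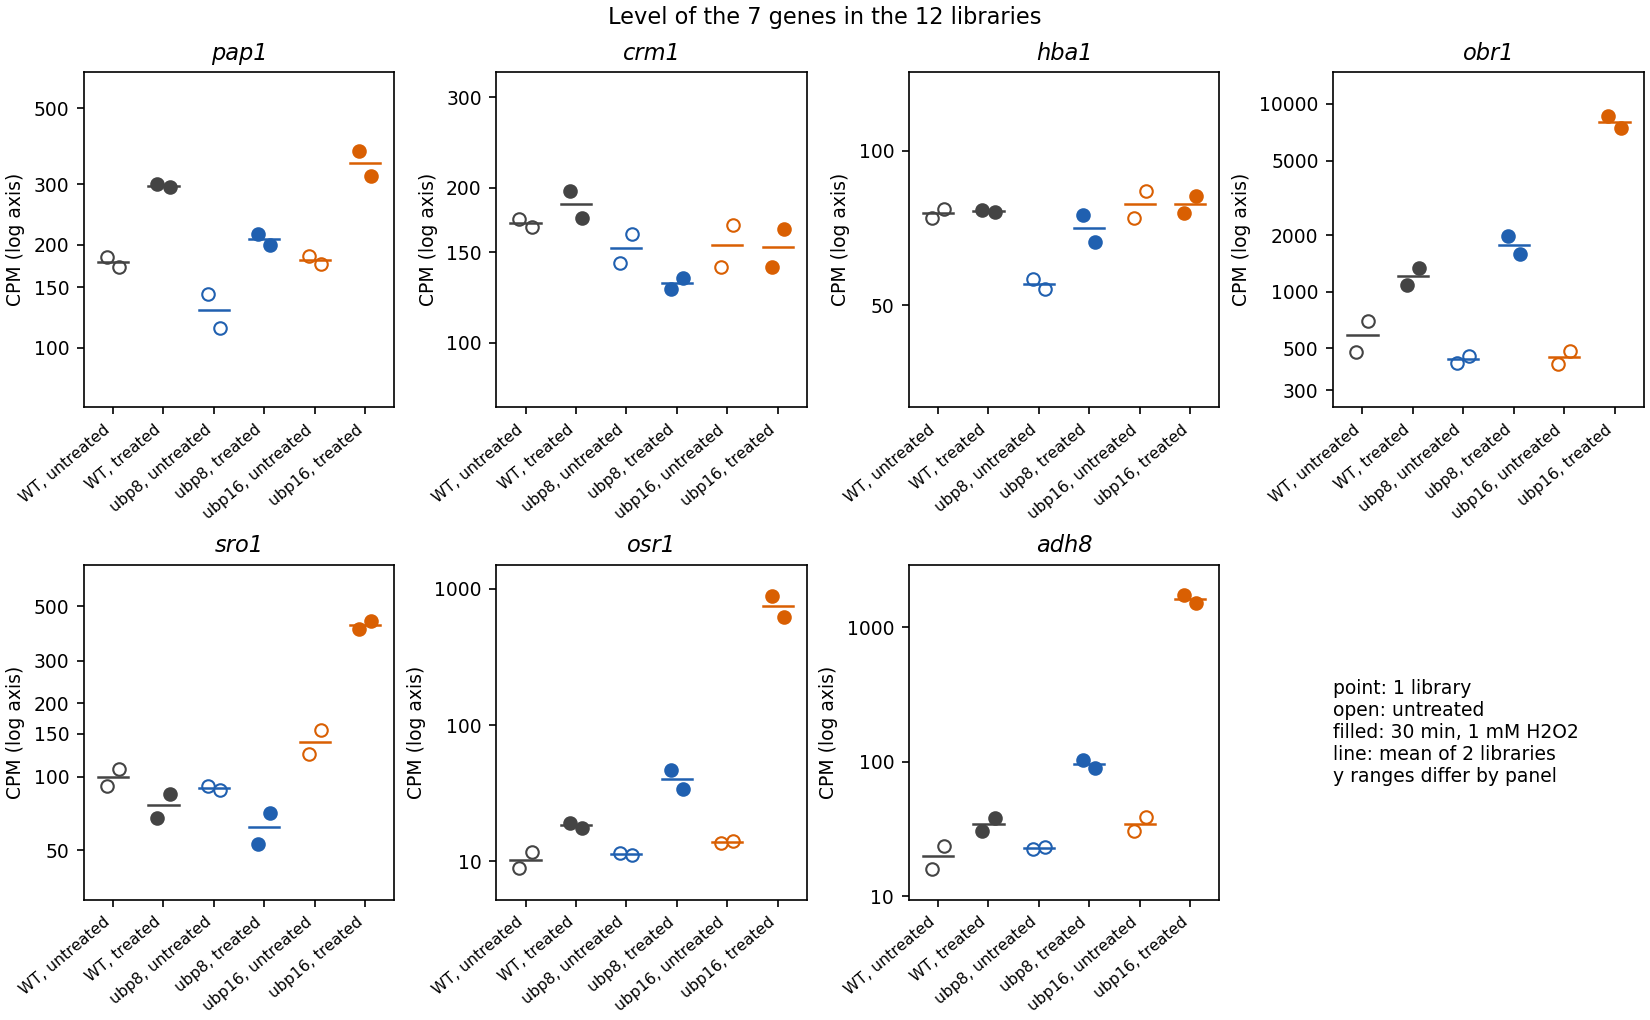
Level in CPM (log axes, whose ranges differ between panels) of the 7 genes in each of the 12 libraries, with open points for untreated and filled points for treated libraries and a line at the mean of 2. The treated ubp16 libraries stand far above all others for obr1 (8676 and 7418 CPM), sro1, osr1 and adh8, while the highest library of crm1 is 1.55-fold and that of hba1 1.56-fold above the lowest.

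Peroxide raised pap1 (SPAC1783.07c) itself in all 3 strains, by less than 2-fold. Untreated WT libraries held 184 and 172 CPM, and treated ones 301 and 294 CPM. In ubp8 the levels were 144 and 114 CPM untreated against 215 and 199.9 CPM treated. In ubp16 they were 185 and 175 CPM untreated against 374 and 317 CPM treated. In each strain both treated libraries lay above both untreated ones. In bulk RNA such as this, a change in every cell and a change in the share of cells that hold the transcript cannot be told apart. The response was 0.74 ± 0.11 in WT (adjusted p = 2.9e-05), 0.69 ± 0.11 in ubp8 (adjusted p = 7.25e-05) and in the ubp16 strain 0.94 ± 0.11 (adjusted p = 2.49e-06). All 3 were called under each of the 20 alternatives. The responses of the mutants were not called different from that of WT, at -0.06 ± 0.16 for ubp8 (adjusted p = 0.848) and 0.20 ± 0.16 for ubp16 (adjusted p = 0.379).

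The ubp8 mutant held less pap1 transcript than WT in both conditions, by -0.47 ± 0.11 untreated (72.4% of WT, adjusted p = 0.00517) and by -0.52 ± 0.11 treated (69.7% of WT, adjusted p = 0.00216). Both ubp8 libraries lay below both WT libraries each time. The untreated difference was not called with library totals (-0.18), with a mean of at least 50 counts as the filter (-0.29) or without replicate 2 of untreated ubp8 (-0.31). In ubp16 the untreated level was not called against WT (0.02 ± 0.11, adjusted p = 0.928), and the libraries overlapped. After treatment it was 0.22 ± 0.11 (adjusted p = 0.108), which was called without replicate 2 of treated ubp16 (0.34). Between the mutants, pap1 was higher in ubp16 by 0.48 ± 0.11 untreated (adjusted p = 0.00272) and 0.74 ± 0.11 treated (adjusted p = 7.33e-05). The untreated value was not called with library totals (0.31) or without replicate 2 of untreated ubp8 (0.33). From lowest to highest the groups ran untreated ubp8, untreated WT, untreated ubp16, treated ubp8, treated WT and treated ubp16, and the libraries of untreated WT and untreated ubp16 overlapped.

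The export receptor gene crm1 (SPAC1805.17) was not called in any of the 3 responses. Its levels were 174 and 168 CPM in untreated WT against 197 and 175 CPM in treated WT, where 0.12 ± 0.11 did not pass (adjusted p = 0.378). In ubp16 it stood at 141 and 169 CPM untreated and 140.1 and 166 CPM treated (-0.02 ± 0.11, adjusted p = 0.919). In ubp8 it stood at 143 and 163 CPM untreated and 127 and 134 CPM treated. The treated ubp8 libraries were the lowest of the 12, and the ubp8 response of -0.23 ± 0.11 (adjusted p = 0.0921) passed under 9 of 20 alternatives, among them library totals (-0.56). Against treated WT, crm1 was lower in treated ubp8 by -0.51 ± 0.11 (70.0% of WT, adjusted p = 0.00255), a call that held under all 20 alternatives. It was also called lower in treated ubp16, by -0.28 ± 0.11 (82.2% of WT, adjusted p = 0.0421), and this passed under 12 of 20 alternatives. It did not pass with DESeq2 (-0.28) or library totals (-0.24). Nor did it pass when replicate 1 of treated WT (-0.19), of treated ubp16 (-0.14) or of untreated WT (-0.28) was left out, or replicate 2 of untreated WT (-0.27), or either library of treated ubp8 (-0.27 each). Untreated, neither ubp8 (-0.16 ± 0.11, adjusted p = 0.262) nor ubp16 (-0.14 ± 0.11, adjusted p = 0.379) was called against WT. The ubp8 response was not called different from that of WT (-0.35 ± 0.16, adjusted p = 0.134), but it was with a mean of at least 50 counts, with no filter, or with only the groups compared.

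The second export gene, hba1 (SPBC365.13c), varied as little as crm1 and was called only where ubp8 libraries entered the test. With library totals its ubp16 response was called too (-0.25). WT held 73.8 and 76.99 CPM untreated and 76.6 and 76.1 CPM treated (0.02 ± 0.10, adjusted p = 0.898). The ubp16 mutant held 73.9 and 83.6 CPM untreated and 75.7 and 81.5 CPM treated. Untreated ubp8 libraries held 56.1 and 53.7 CPM, below all 10 others, and treated ones 74.9 and 66.2 CPM. Untreated ubp8 was lower than WT by -0.46 ± 0.10 (72.8% of WT, adjusted p = 0.00237) and lower than ubp16, as 0.52 ± 0.10 for ubp16 against ubp8 (adjusted p = 0.000516). In ubp8 peroxide raised hba1 by 0.36 ± 0.10 (adjusted p = 0.00438), after which it no longer passed against WT (-0.11 ± 0.10, adjusted p = 0.399). Neither the ubp8 difference from WT (-0.17) nor the ubp8 response (0.04) passed with library totals, and the response did not pass without replicate 1 of treated ubp8 (0.18). The difference in response between ubp8 and WT was not called (0.35 ± 0.14, adjusted p = 0.0920).

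The quinone oxidoreductase gene obr1 (SPAC3C7.14c) rose in all 3 strains, and by far the most in ubp16. WT libraries held 478 and 702 CPM untreated against 1081 and 1340 CPM treated. The ubp8 libraries held 417 and 457 CPM untreated against 1971 and 1590 CPM treated. The ubp16 libraries held 412 and 487 CPM untreated against 8676 and 7418 CPM treated. The strains thus began close together, with the untreated libraries of ubp16 overlapping those of both other strains, and after treatment the 3 strains did not overlap. The response was 1.04 ± 0.17 in WT (adjusted p = 7.86e-05), 2.03 ± 0.18 in ubp8 (adjusted p = 6.74e-08) and 4.16 ± 0.19 in ubp16 (17.9-fold, adjusted p = 6.83e-11), the 24th largest of 4954 coding genes tested in ubp16.

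The difference between responses was itself tested for obr1. Its rise exceeded that of WT by 3.13 ± 0.25 in ubp16 (adjusted p = 1.66e-07) and by 0.99 ± 0.24 in ubp8 (adjusted p = 0.0127). The ubp16 call held under all 20 alternatives, while the ubp8 call was lost on leaving out replicate 1 of treated WT (0.75) or of treated ubp8 (0.73), or replicate 2 of untreated WT (0.61). Set against treated WT, obr1 was higher by 2.73 ± 0.18 in ubp16 (6.65-fold, adjusted p = 4.0e-09) and by 0.56 ± 0.17 in ubp8 (adjusted p = 0.0200), and the ubp8 value did not pass without replicate 1 of treated WT (0.39) or of treated ubp8 (0.37). Before treatment neither ubp8 (-0.43 ± 0.17, adjusted p = 0.0544) nor ubp16 (-0.39 ± 0.17, adjusted p = 0.106) was called against WT. The ubp8 value passed under 7 of 20 alternatives and the ubp16 value under 3. Treated ubp16 stood above treated ubp8 by 2.18 ± 0.18 (4.52-fold, adjusted p = 1.2e-07).

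The small Pap1 target sro1 (SPBC1347.11) changed in opposite directions, falling in WT and ubp8 and rising in ubp16. WT libraries held 92.1 and 107 CPM untreated against 67.8 and 85.4 CPM treated. In ubp8 they held 91.6 and 88.3 CPM untreated against 53.2 and 71.3 CPM treated. In ubp16 they held 124 and 155 CPM untreated against 404 and 437 CPM treated. The treated ubp16 libraries were above all 10 others, and the untreated ubp16 libraries were above all libraries of WT and ubp8. The response was -0.38 ± 0.14 in WT (adjusted p = 0.0363), -0.53 ± 0.14 in ubp8 (adjusted p = 0.00515) and 1.60 ± 0.14 in ubp16 (3.02-fold, adjusted p = 7.68e-08). The fall in WT did not pass without replicate 1 of treated WT (-0.21) or replicate 2 of untreated WT (-0.27).

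The ubp16 response of sro1 exceeded that of WT by 1.98 ± 0.20 (adjusted p = 2.94e-06), and that of ubp8 differed from WT by -0.15 ± 0.20 (adjusted p = 0.644). Treated ubp16 stood above treated WT by 2.46 ± 0.15 (5.49-fold, adjusted p = 1.24e-09). Already before treatment ubp16 was higher than WT, by 0.48 ± 0.14 (adjusted p = 0.0192), and this value lost its call on leaving out replicate 2 of untreated ubp16 (0.31), and also without replicate 1 of untreated WT (0.37). Against ubp8, ubp16 was higher by 0.63 ± 0.14 untreated (adjusted p = 0.00208) and 2.76 ± 0.15 treated (adjusted p = 1.23e-09). The annotation places 3 transcripts on the strand opposite sro1, with 98 to 411 counts per library, between 8.68% and 36.6% of the counts of sro1 itself. The library kit keeps strand, but the labels do not state the strand setting of the counting, so the part of opposite-strand reads in the sro1 counts was not tested.

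The dehydrogenase genes osr1 (SPCC663.06c) and adh8 (SPBC1773.06c) were low in most groups and followed each other. For osr1 the WT libraries held 8.89 and 11.7 CPM untreated and 19.2 and 17.6 CPM treated, and those of ubp8 held 11.5 and 11.1 CPM untreated and 46.9 and 34.1 CPM treated. For adh8 the WT libraries held 16.0 and 23.6 CPM untreated and 30.4 and 38.0 CPM treated, and those of ubp8 held 22.5 and 23.2 CPM untreated and 104 and 89.4 CPM treated. For both genes the treated ubp8 libraries lay above all WT libraries. In WT, peroxide raised osr1 by 0.83 ± 0.22 (adjusted p = 0.00405), a call lost without replicate 1 of untreated WT (0.64), and raised adh8 by 0.78 ± 0.17 (adjusted p = 0.00115). In ubp8 the rises were 1.85 ± 0.19 for osr1 (adjusted p = 3.58e-07) and 2.08 ± 0.16 for adh8 (adjusted p = 1.57e-08).

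The rule that added osr1 and adh8 used treated ubp16 only, and the differences between ubp8 and WT were tested. Since both genes were chosen with the values of all strains known, these tests are not independent of the choice. The adh8 response in ubp8 exceeded that in WT by 1.30 ± 0.24 (adjusted p = 0.00235), called under all 20 alternatives. For osr1 the excess was 1.02 ± 0.29 (adjusted p = 0.0250), called under 12 of 20. It was not called with library totals (0.88), limma-voom (1.01), a mean of at least 50 counts (0.88), or without either library of treated WT (0.99 and 0.87), replicate 2 of untreated WT (0.73), replicate 1 of treated ubp8 (0.67) or replicate 2 of untreated ubp8 (1.00). Treated ubp8 stood above treated WT by 1.15 ± 0.19 for osr1 (adjusted p = 0.000273) and 1.4995 ± 0.16 for adh8 (adjusted p = 6.66e-06). Untreated ubp8 was not called against WT for osr1 (0.13 ± 0.22, adjusted p = 0.660) or adh8 (0.20 ± 0.17, adjusted p = 0.373), the latter called with library totals (0.50).

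In ubp16, where both genes were chosen, osr1 went from 13.7 and 14.1 CPM to 888 and 618 CPM, a 54.2-fold change that was the 5th largest of 4954 coding genes. The gene adh8 went from 30.6 and 38.7 CPM to 1731 and 1524 CPM, a 47.2-fold change and the 7th largest. Treated ubp16 stood 41.0-fold above treated WT for osr1 and 47.5-fold for adh8. These values chose the genes and carry no test. Transcripts opposite osr1 had 25 to 171 counts per library, from 0.280% of the osr1 counts up to 95.5% in replicate 2 of untreated ubp8, and those opposite adh8 at most 18.0% of the adh8 counts.

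**Figure D2:**
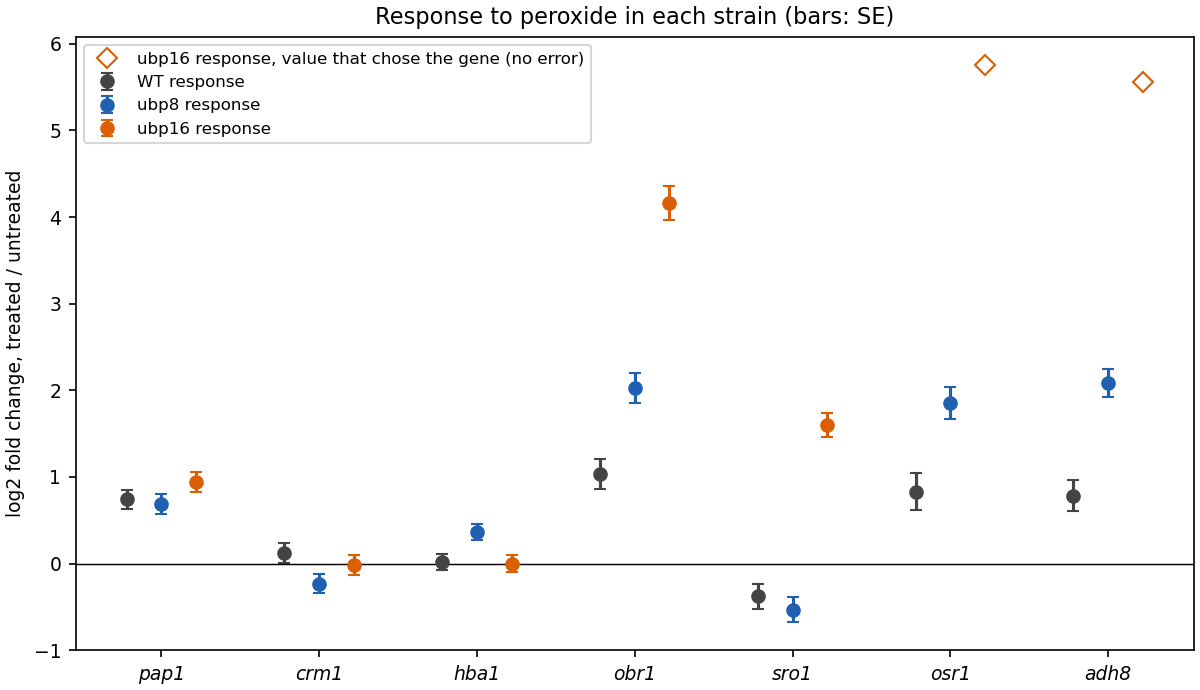
Response to peroxide (log2 fold change, treated over untreated, with SE) of the 7 genes in WT, ubp8 and ubp16, with open diamonds and no error for the 2 values that chose their gene. The 4 oxidoreductase and target genes spread apart in ubp16 (obr1 at 4.16 and sro1 at 1.60), whereas pap1 lies between 0.69 and 0.94 in all 3 strains, crm1 between -0.23 and 0.12, and hba1 near 0 except in ubp8 (0.36).

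Levels can be compared between genes per length of transcript. On the RPKM scale, which is CPM per kilobase of annotated exon, pap1 stood at 67.5 in untreated WT and 131 in treated ubp16. The level of obr1 was already 675 RPKM in untreated WT and reached 9197 RPKM in treated ubp16. The level of sro1, near that of pap1 in untreated WT, went from 74.4 to 314 RPKM. Those of osr1 and adh8 lay below pap1 in untreated WT and, in the libraries that chose them, above it, as osr1 went from 9.15 to 671 RPKM and adh8 from 15.4 to 1270 RPKM between the same groups. Between these 2 groups the export gene crm1 went from 42.1 to 37.7 RPKM and hba1 from 35.6 to 37.1 RPKM. Over the 6 groups crm1 ran from 32.1 RPKM in treated ubp8 to 45.8 RPKM in treated WT. The range of hba1 was from 25.9 RPKM in untreated ubp8 to 37.2 RPKM in untreated ubp16.

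Counted over the comparisons, the peroxide responses called 5 of 7 genes in WT, where 53.2% of all genes tested were called, 6 of 7 in ubp8 (53.8% of all genes) and 3 of the 5 genes chosen by name in ubp16 (50.3% of all genes). Against untreated WT, 2 of 7 were called in ubp8 (38.9%) and 1 of 5 in ubp16 (25.6%). Against treated WT, 5 of 7 were called in ubp8 (32.3%) and 3 of 5 in ubp16 (55.2%). A response different from that of WT was called for 3 of 7 genes in ubp8 (16.8%) and 2 of 5 in ubp16 (27.4%). Those 3 were obr1 and the added genes osr1 and adh8. The added genes were also among those called in the responses of WT and ubp8 and in treated ubp8 against WT. They were chosen with the values of all strains known, so these counts are not independent of the choice. Between the mutants, 3 of 5 were called untreated (45.5%) and 3 of 5 treated (43.6%). The count in treated ubp16 against WT lies near the share of all genes, and counts over 5 or 7 genes are too few to read more than that from them.

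The 13 other genes listed here as Pap1-dependent rose in most cases in each strain. The list was written with earlier results of these data known. None of the 3 strains was a pap1 mutant, so the dependence of these rises on Pap1 was not tested. In WT 11 rose, 1 fell and 1 did not pass, with a median of 1.39 against -0.04 over all genes, of which 26.2% were called higher. In ubp8 12 rose and 1 fell (median 2.76), and in ubp16 13 of 13 rose (median 2.83), where 28.0% and 25.2% of all genes were called higher. With library totals the counts in WT became 9 higher and 2 lower, the rises of caf5 (0.37) and pgr1 (0.15) losing their call, and those in the mutants were the same. The order of strains seen in obr1, lowest in WT and highest in ubp16, was that of the drug transporter genes caf5 and bfr1, the thioredoxin reductase gene trr1, the peroxiredoxin gene tpx1, the sulfiredoxin gene srx1, gst2 and pgr1. The ubp16 response of these 7 genes was called above that of WT, as was the ubp8 response except for srx1 and pgr1, while ubp16 was not tested against ubp8 for this. The response of caf5 was 0.56 in WT, 2.76 in ubp8 and 4.89 in ubp16, that of trr1 0.66, 2.53 and 4.68, and that of tpx1 1.39, 2.30 and 4.22. The response of gst2, a glutathione transferase gene, was 1.75, 3.61 and 3.98, that of pgr1 0.34, 0.65 and 1.15, and that of srx1 4.88, 4.99 and 5.71. The response of bfr1 did not pass in WT (-0.22) and was 1.40 in ubp8 and 2.83 in ubp16. The thioredoxin gene trx2 fell in WT and ubp8 (-0.33 each) and rose in ubp16 (0.59), in the directions of sro1.

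Other genes of the list did not have that order. The catalase gene ctt1 rose strongly in every strain (4.32 in WT, 4.61 in ubp8 and 3.75 in ubp16), and so did zwf1 (2.15, 2.80 and 2.36). The responses of gst3, a glutathione transferase gene (3.79, 4.18 and 2.31), of the glutathione peroxidase gene gpx1 (3.51, 3.27 and 1.28) and of hmt2 (1.15, 1.38 and 0.70) were lower in ubp16. Against the WT response, 8 of the 13 were called higher and 3 lower in ubp16, where 13.0% and 14.4% of all genes were, and 6 higher and 0 lower in ubp8, where 10.5% and 6.34% were. The 3 lower ones were gst3, gpx1 and hmt2, and all 3 were called higher than WT in untreated ubp16 (1.96, 1.99 and 0.56). In treated ubp16 against treated WT, 11 of 13 were called higher and 0 lower, with a median of 1.90 (28.7% of all genes were called higher). The largest was caf5 at 4.35 ± 0.19, followed by trr1 at 3.49 ± 0.18. In treated ubp8 against WT 9 of 13 were called higher and 0 lower (16.6% and 15.7% of all genes), led by caf5 at 2.26 ± 0.18 and gst2 at 1.94 ± 0.17. Untreated, the counts were 2 higher and 3 lower in ubp8 (with library totals 3 and 1), where 15.1% and 23.8% of all genes were called. In ubp16 they were 7 higher and 3 lower (with library totals 7 and 2), where 14.3% and 11.3% were called, led by ctt1 at 2.71 ± 0.24 and bfr1 at -1.15 ± 0.13.

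**Figure D3:**
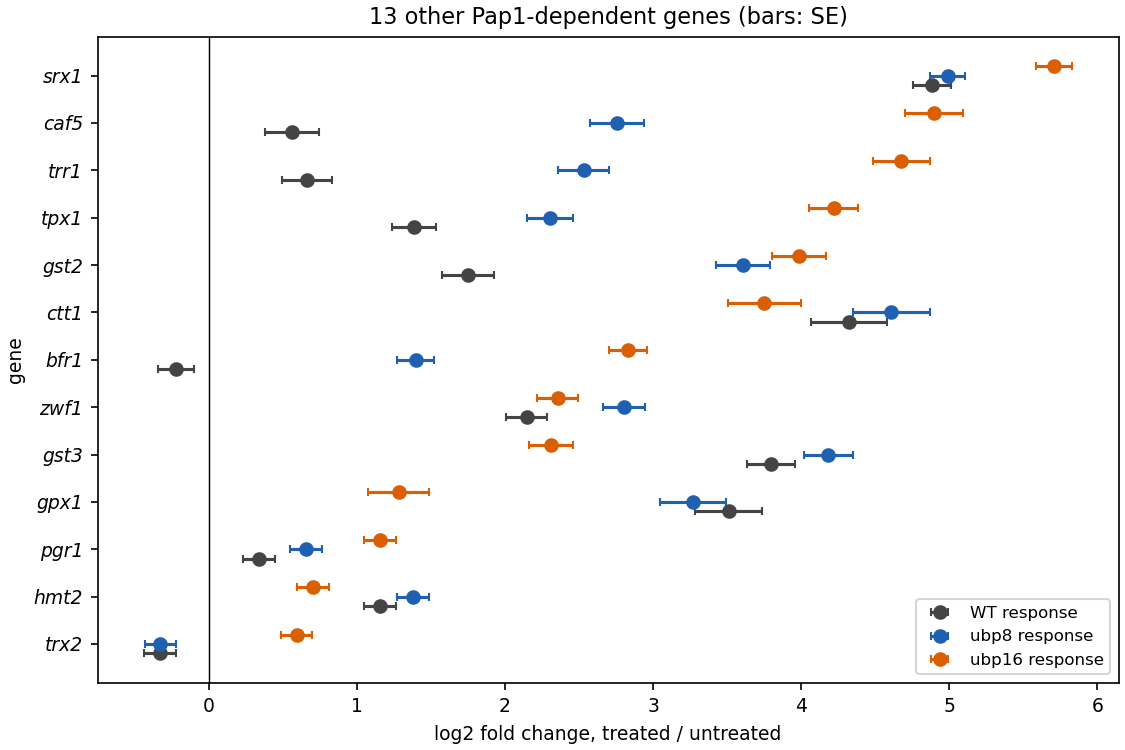
Response to peroxide (log2 fold change, treated over untreated, with SE) of 13 other genes, listed as Pap1-dependent, in WT, ubp8 and ubp16. In caf5, trr1, tpx1 and bfr1 the 3 strains are widely apart, from -0.22 to 1.39 in WT up to 2.83 to 4.89 in ubp16, whereas gst3, gpx1 and hmt2 have their lowest response in ubp16.

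Among regulators of Pap1, of 11 tested, 9 rose and 1 fell in WT, 9 rose and 1 fell in ubp8, and 9 rose and 0 fell in ubp16. Of all genes 26.2%, 28.0% and 25.2% rose and 27.0%, 25.8% and 25.2% fell in the 3 strains, and 4 of the 11 (tpx1, trx2, trr1 and srx1) belong to the Pap1-dependent list too. With library totals the counts of rising genes were 7, 8 and 8, with calls lost for txl1 in WT (0.18) and ubp8 (0.13), rhp6 in WT (0.045) and prr1 in ubp16 (0.0999). The kinase gene sty1 rose by 0.62, 0.61 and 0.70 in WT, ubp8 and ubp16, the factor gene atf1 by 1.71, 1.75 and 1.15, and prr1, which encodes a partner factor of Pap1, by 0.54, 0.68 and 0.35. The thioredoxin gene trx1, whose product reduces Pap1, rose by 1.29, 1.57 and 2.36, and its response in ubp16 was called above that in WT (1.07). The ubiquitin ligase gene ubr1, which acts in the degradation of Pap1, passed in no strain (0.10, 0.03 and 0.00). Before treatment, 1 of the 11 was called higher than WT and 1 lower in ubp8, where 15.1% and 23.8% of all genes were. In ubp16 3 were called higher and 2 lower, where 14.3% and 11.3% were. Higher were srx1 in ubp8 (0.83 ± 0.13) and, among others, srx1 (1.30 ± 0.13) and atf1 (0.72 ± 0.15) in ubp16. Lower were tpx1 in ubp8 (-0.47 ± 0.15) and ubp16 (-0.86 ± 0.15), and trr1 in ubp16 (-0.52 ± 0.17). With library totals tpx1 in ubp8 (-0.18) and trr1 (-0.42) were not called. The counts then became 1 higher and 0 lower in ubp8, and 4 and 1 in ubp16.

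The Ran cycle and the other transport receptors are the partners and relatives of crm1 and hba1. Of 18 genes tested, 0 rose and 8 fell in WT, where 26.2% of all genes rose and 27.0% fell. In ubp8 6 rose and 5 fell, near the 28.0% and 25.8% of all genes, and in ubp16 2 rose and 9 fell, where 25.2% of all genes rose and 25.2% fell. With library totals these became 0 and 12, 1 and 11, and 0 and 12, and pim1, mog1, nxt2 and kap109 in ubp8 and cut15 in ubp16 changed sign. The importin genes sal3 (-0.73, -0.68 and -0.92) and kap123 (-0.66, -0.82 and -1.08) and the tRNA exportin gene los1 (-0.74, -0.84 and -0.81) fell in all 3 strains. Untreated ubp8 held lower levels than WT for 12 of 18 and higher ones for 0, with a median of -0.35, where 23.8% of all genes were called lower. With library totals 3 were called lower and 1 higher, and kap109 changed sign. The largest were kap104 at -0.60 ± 0.10 and imp1, an importin gene, at -0.53 ± 0.09, beside the -0.46 of hba1. In treated ubp16 against WT 4 were called higher and 7 lower (28.7% and 26.5% of all genes), among them rna1, which encodes the GTPase-activating protein of Ran, at -1.02 ± 0.09, and mog1, a Ran-binding protein gene, at 0.59 ± 0.10.

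Other dehydrogenase and reductase genes went in both directions, with medians of 0.63 in WT, 1.04 in ubp8 and 1.21 in ubp16. Over all genes the medians were -0.04, -0.06 and -0.05. Of 9 tested, 5 rose and 2 fell in WT, 6 rose and 2 fell in ubp8, and 5 rose and 2 fell in ubp16, with library totals giving 3 falls in each mutant. The falls lie near the share of all genes that fell, 27.0%, 25.8% and 25.2%. The rises lie above the 26.2%, 28.0% and 25.2% of all genes that rose, over only 9 genes. Against the WT response, 2 were called higher and 3 lower in ubp16 (median -0.30), where 13.0% and 14.4% of all genes were. In ubp8 1 was called higher, the formaldehyde dehydrogenase-type gene fmd1 (0.63), and 0 lower, where 10.5% and 6.34% of all genes were. With library totals fmd1 was not called there (0.49). The counts then became 0 higher and 1 lower in ubp8, and 2 and 4 in ubp16. The largest rises were those of etr1 (3.93 in WT, 3.56 in ubp8 and 2.96 in ubp16) and tms1 (3.53, 3.48 and 2.70). Both were lowest in ubp16. The formaldehyde dehydrogenase-type gene fmd3 fell in all 3 strains (-1.56, -0.97 and -1.22). In untreated ubp16 the glycerol dehydrogenase gene gld1 stood above WT by 3.87 ± 0.50. The gene fmd1 came nearest to the graded pattern (0.63 in WT, 1.25 in ubp8 and 2.06 in ubp16). It was higher in treated ubp16 than in treated WT by 1.68 ± 0.12. The main alcohol dehydrogenase gene adh1 fell in all 3 strains (-0.58, -0.57 and -0.93) and was lower than WT in treated ubp16 (-1.26 ± 0.11). So was adh4 (-1.49 ± 0.17), whose response passed in no strain. Among these alcohol dehydrogenase genes, adh1 (-0.91 ± 0.11) and adh4 (-1.18 ± 0.17) were already called lower than WT in untreated ubp16. The gene adh8 was chosen for its rise in treated ubp16.

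Beside 4 of the 7 genes lies an adjacent coding gene on the same strand with a large peroxide response, and these neighbours were chosen after their values were seen, for those responses, so their values are a description with no test. Beside osr1, the short chain dehydrogenase gene SPCC663.08c followed the same order of strains. It held 7.32 and 8.83 CPM untreated and 27.1 and 28.2 CPM treated in WT, 8.06 and 8.53 then 180.4 and 104 CPM in ubp8, and 7.22 and 6.70 then 1577 and 1227 CPM in ubp16. Its untreated libraries lay between 6.70 and 8.83 CPM in the 3 strains, and its treated libraries did not overlap between them. The response was 1.77 ± 0.25 in WT, 4.10 ± 0.22 in ubp8 and 7.65 ± 0.25 in ubp16.

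The chosen neighbours of hba1, obr1 and adh8 had smaller folds in ubp16 than in WT and ubp8. The other adjacent coding genes of hba1, obr1 and adh8, also on the same strand, had smaller responses. Those of uge1, beside hba1, were 0.03 in WT, 0.30 in ubp8 and 0.04 in ubp16. Those of SPAC25A8.03c, beside obr1, were 0.20, 0.22 and 0.54, and those of sbp1, beside adh8, were -0.53, -0.16 and -0.24. Beside hba1, the stress gene ish1 had a response of 5.51 ± 0.24 in WT and 5.35 ± 0.23 in ubp8, against 2.87 ± 0.21 in ubp16, while hba1 itself stayed within 0.36. Beside obr1, SPAC3C7.13c, a glucose-6-phosphate dehydrogenase gene, went up by 1.80 in ubp16 against 3.67 in WT and 3.48 in ubp8. Beside adh8, the hexitol dehydrogenase gene tms1 had responses of 3.53 ± 0.19 in WT and 3.48 ± 0.18 in ubp8 and a smaller one of 2.70 ± 0.17 in ubp16. The neighbours ish1, SPAC3C7.13c and tms1 thus had their smallest fold in the strain where obr1 and adh8 had their largest. Their untreated ubp16 levels were above those of WT, at 466 and 845 CPM against 70.4 and 81.1 CPM for ish1 and 121 and 157 CPM against 13.2 and 13.8 CPM for tms1. For SPAC3C7.13c they were 205 and 337 CPM against 23.3 and 24.4 CPM. Treated ubp16 libraries also stood above treated WT for each of these neighbours. They held 883 and 999 CPM against 275 and 332 CPM for SPAC3C7.13c. For tms1 they held 969 and 840 CPM against 182 and 130 CPM, and for ish1 4414 and 5164 CPM against 3240 and 3692 CPM.

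**Figure D4:**
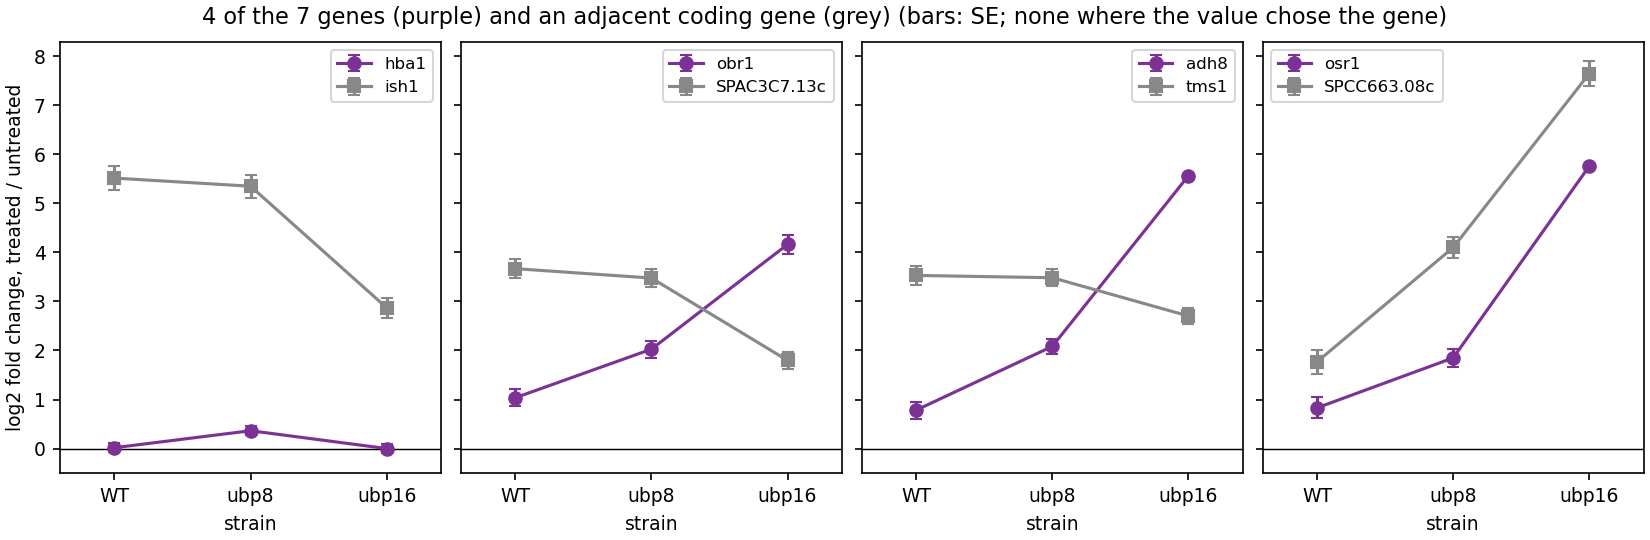
Response to peroxide (log2 fold change, treated over untreated, with SE) of hba1, obr1, adh8 and osr1 (purple) and of an adjacent coding gene on the same strand (grey) in WT, ubp8 and ubp16. From WT to ubp16 obr1 goes from 1.04 to 4.16 while SPAC3C7.13c goes from 3.67 to 1.80, whereas osr1 and SPCC663.08c are both lowest in WT and highest in ubp16.

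The genes most like each of the 7 across the 12 libraries were found by Pearson correlation of log2(CPM + 1) over 4794 coding genes, as a description. The points share strains, treatment and libraries, and osr1 and adh8 were both added for their rise in the same 2 treated ubp16 libraries, so their high correlation follows in part from that choice. For osr1 these were adh8 (r = 0.995), the nitric oxide dioxygenase gene yhb1 (r = 0.992) and the aldehyde dehydrogenase gene atd2 (r = 0.980). For adh8 they were yhb1 (r = 0.997), osr1 (r = 0.995) and the dihydrodiol dehydrogenase gene dhd1 (r = 0.986), and for obr1 SPCC757.04, a transcription factor gene (r = 0.991), pxp2 (r = 0.987) and the kinase gene ppk8 (r = 0.984). The pair obr1 and osr1 reached 0.954 and obr1 and adh8 0.947.

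The other genes had other company. For sro1 it was dre2 (r = 0.947), the vacuolar transporter gene fnx2 (r = 0.928) and sac3, an mRNA export factor gene (r = 0.924). For pap1 it was cbp3 and mrs3, both of mitochondrial proteins, and the vacuolar ATPase gene vma13 (r = 0.971 to 0.972). For hba1 it was sbh1 (r = 0.969), qcr6 (r = 0.965) and the microtubule gene mal3 (r = 0.958). For crm1 the highest values were lower, with SPAPB18E9.05c (r = 0.906), tgp1 (r = 0.826) and the Mediator gene med14 (r = 0.797). The factor gene pap1 itself correlated with obr1 at 0.819, with osr1 at 0.728, with adh8 at 0.702, with hba1 at 0.657, with sro1 at 0.476 and with crm1 at 0.128.

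Mating-type transcripts also differed between the strains. The summed level of 6 M-cell markers (mfm1, mfm2, mfm3, mam1, mam2 and mam3) was 103 and 82.0 CPM in untreated WT, 57.7 and 53.5 CPM in treated WT, 111 and 135 CPM in untreated ubp8 and 86.4 and 81.3 CPM in treated ubp8. In ubp16 it was 287 and 224 CPM untreated and 250.4 and 208 CPM treated, above every library of the other strains in both conditions. The 2 P-cell markers map2 and map3 summed to between 3.06 and 12.1 CPM in all libraries. None of these 8 genes was at 0 in any group. The part of these transcripts in the ubp16 values of obr1, sro1, osr1 and adh8 was not tested.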

How the data were processed

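PolyA RNA libraries were made with a stranded kit after hot phenol extraction, per the labels' protocols. The authors deposited 1 table of raw read counts by gene and library, and per the submitters' processing notes FastQC, Trimmomatic, STAR, HTSeq and DESeq2 were used, without versions or settings. Neither genome build nor annotation is given in the sources used here. Of 12683 genes listed, 12602 matched RefSeq assembly ASM294v3 by identifier, which served for names, lengths, neighbours and promoters.

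Groups came from the sample titles. Counts were fitted in R 4.3.3 with edgeR 4.0.16 (filterByExpr, TMM, quasi-likelihood F test, 1 mean per group over 12 libraries, 6 residual degrees of freedom), which tested 8166 genes, 4954 of them coding. SE is the log2 fold change over the square root of F. The 11 comparisons were 3 responses, 2 interactions, and in each condition ubp8 against WT, ubp16 against WT and ubp16 against ubp8. The script was tested on simulated data. A count of 3, the floor, was at most 0.316 CPM, and this limit covers counting error only. Alternatives were a replicate block, only the groups compared, the filter set to a mean of at least 50 counts or dropped, scaling by library totals or by median-of-ratios factors, limma-voom (limma 3.58.1) and DESeq2 1.42.0 as other tools, and leaving out each of 12 libraries.

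Genes named were the 7, the targeted genes, and for each of the 7 the 3 coding genes most correlated with it. From each list, up to 2 called genes per direction with the largest fold change were taken, of which not all are given. Other list genes and the neighbours were named after their values were seen. Members and lists were chosen with earlier results of these data known. In the lists, trx3 is another name of txl1, sou1, gcy1 and mat2-Pc had no match, and pst2 was left out because it is a Clr6 complex subunit.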

Additional observations from a re-analysis of the deposited data

Results flagged for a closer look

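For 5 values the response of a mutant was called different from that of WT by a test of the difference itself, edgeR's interaction term. In ubp16 these were obr1 (3.13 ± 0.25, adjusted p = 1.66e-07) and sro1 (1.98 ± 0.20, adjusted p = 2.94e-06). In ubp8 they were adh8 (1.30 ± 0.24, adjusted p = 0.00235), obr1 (0.99 ± 0.24, adjusted p = 0.0127) and osr1 (1.02 ± 0.29, adjusted p = 0.0250). All 5 were positive, and 10.5% of all genes tested were called higher in this way in ubp8 and 13.0% in ubp16. The 2 sets of values share the WT libraries, and osr1 and adh8 were chosen with the values of all strains known.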

How the results depend on the processing

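Over 20 alternatives, 211 of 220 counts of called genes stayed within 1.5 times the value reported, and 9 moved further. Untreated ubp8 against WT had 1 of 7 called instead of 2 with library totals and with a mean of at least 50 counts. Untreated ubp16 against WT had 2 of 5 instead of 1 with DESeq2 and with no filter. Leaving out 1 library gave 1 to 3 calls for untreated ubp8 against WT, 0 to 1 for untreated ubp16 against WT and 1 to 3 for the ubp8 response against that of WT. Of 1540 values of single genes, 1378 kept direction and side of the threshold, 34 lost a call, 31 gained one and 76 changed sign. The other 21 carry no test and moved by at least the SE of the main fit.

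All values that changed sign were called in neither fit. With library totals they were crm1 (-0.068) and hba1 (-0.17) in the WT response, crm1 (0.13) and sro1 (0.14) in untreated ubp8 against WT, hba1 in treated ubp8 against WT (0.045) and crm1 (-0.17) and obr1 (-0.15) in untreated ubp16 against ubp8. With a mean of at least 50 counts they were crm1 (0.0155) and hba1 (0.0302) in the ubp16 response, crm1 (0.016) and sro1 (0.028) in untreated ubp8 against WT, and crm1 (-0.17) and obr1 (-0.15) in untreated ubp16 against ubp8. With DESeq2 and with median-of-ratios factors in edgeR, they were crm1 (0.024 and 0.0242) and hba1 (0.0385 and 0.0386) in the ubp16 response, pap1 in untreated ubp16 against WT (-0.0007 and -0.0006) and hba1 in the ubp16 interaction (0.0042 and 0.0043). In the ubp16 response hba1 was 0.0045 with limma-voom, 0.0107 with no filter and 0.0001 with the replicate block. In untreated ubp16 against ubp8, crm1 and obr1 were -0.0455 and -0.0222 with no filter and -0.039 and -0.0157 with only the groups compared.

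Leaving out 1 library at a time, the values that changed sign ranged as follows. In the WT response hba1 ran from -0.027 to 0.0469. In the ubp16 response crm1 ran from -0.15 to 0.13 and hba1 from -0.0897 to 0.0944. In untreated ubp8 against WT sro1 ran from -0.27 to 0.0257, osr1 from -0.0655 to 0.40 and adh8 from -0.0645 to 0.57. Against WT in untreated ubp16, pap1 ran from -0.04 to 0.0578 and hba1 from -0.0385 to 0.15, and in treated ubp16 hba1 from -0.0079 to 0.12. In the interactions pap1 ran from -0.21 to 0.13 in ubp8, and in ubp16 crm1 from -0.26 to 0.0134 and hba1 from -0.10 to 0.0858. In untreated ubp16 against ubp8 crm1 ran from -0.12 to 0.16 and obr1 from -0.0799 to 0.17. The cause of these changes was not tested.

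Groups share replicate numbers in the labels, but deviations of same-numbered libraries correlated from -0.089 to 0.191 over 15 pairs of groups. Between the untreated and treated libraries of a strain they were 0.112 in WT, 0.180 in ubp8 and 0.144 in ubp16. With 2 numbers per group and no label that ties a number to a culture or day, the numbers were taken as names. With the replicate block, 2 calls were gained, obr1 in untreated ubp8 against WT (-0.43, adjusted p = 0.0384) and sro1 in treated ubp8 against WT (-0.30, adjusted p = 0.0367). The counts under the block were 5, 6 and 3 in the responses of WT, ubp8 and ubp16, 3 and 1 for untreated ubp8 and ubp16 against WT, 6 and 3 for treated ubp8 and ubp16 against WT, 3 and 2 for the interactions, and 3 and 3 for ubp16 against ubp8. The precision rests on 2 libraries per group and 6 residual degrees of freedom, and differences of over 2 SE, such as those of obr1 in untreated ubp8 (-0.43 ± 0.17) and of hba1 between the responses of ubp8 and WT (0.35 ± 0.14), did not pass.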
